A study of Rattus norvegicus with 23 samples.

Results

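The AP-1 and immediate early genes Fos, Fosb, Fosl1, Fosl2, Jun, Junb, Jund, Egr1, Egr2 and Ier3 are described here in rat kidney cells under acidosis. These 10 genes were taken by their symbols from the deposited count table of 30452 rat genes, and all 10 are listed there. Of the 10, 9 passed a filter on low counts and were tested among 14777 genes, and Junb did not. At least 1 count in the samples used was found for 22243 genes.

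NRK-52E cells, an epithelial line of normal rat kidney that the labels call NRKE, and NRK-49F cells, a fibroblast line of normal rat kidney that they call NRKF, were each grown alone in DMEM with FCS. Both lines were kept for 24 h in medium free of FCS and then for 48 h at pH 7.4 (control) or at pH 6.0 set with HCl (acidosis). RNA was selected for poly(A) and sequenced. There were 6 samples of NRK-52E cells at each pH, 6 samples of NRK-49F cells at pH 7.4 and 5 at pH 6.0.

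The labels also give each sample a sample group, 1 or 3 for NRK-52E cells and 4 or 6 for NRK-49F cells, without saying what it marks. Each sample group held both pH values, with 3 samples in each, except for 2 samples of sample group 4 at pH 6.0. The labels do not say that the samples were separate cultures, so the p-values below measure only the spread between these samples, which may be technical. Each line is a single cell line in culture.

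AP-1 is a dimer of a FOS and a JUN subunit, or of 2 JUN subunits, that binds the DNA sequence TGACTCA. Many of its subunit genes, like the zinc finger factors of the EGR family, belong to the immediate early genes, which are transcribed within minutes of a stimulus such as serum without new protein synthesis, through factors that include serum response factor, and whose transcripts are mostly short-lived. In kidney cells they are known to respond to growth factors and to stress of many kinds.

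Total counts per sample ranged from 17108547 to 32492245 (median 19131834) in NRK-52E cells at pH 7.4 and from 16657666 to 33690997 (median 17438369) at pH 6.0. The range in NRK-49F cells was 16412564 to 34250535 (median 24822381) at pH 7.4 and 16800361 to 31206192 (median 24410964) at pH 6.0. Levels are given in FPM, counts per 1000000 counts of the tested genes after TMM scaling. A count of 3, taken as the smallest level the depth can show, was worth 0.0839 to 0.203 FPM. Such limits and counting intervals cover counting error only. A gene is called regulated where edgeR's quasi-likelihood test gave a Benjamini-Hochberg adjusted p under 0.05 over all genes tested, and log2 fold changes are given with their standard error.

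The markers only partly matched the labels of the lines. Of 10 epithelial markers, 8 were in the table, and Esrp1 had no count in any sample, while Cdh1, Epcam, Krt18, Cldn4 and Cldn7 were at or near 0 in both lines, with Cdh1 at 0 to 12 counts in NRK-52E cells. Krt8 was at 499 ± 76.4 FPM in NRK-52E cells and 839 ± 193 FPM in NRK-49F cells at pH 7.4 (SD, n = 6 each), and Krt7 at 21.8 ± 6.04 and 1.42 ± 0.720 FPM. Of 10 fibroblast markers, Pdgfra was at 1.83 ± 1.54 FPM in NRK-52E cells against 306 ± 48.5 FPM in NRK-49F cells at pH 7.4, and Thy1 had at most 4 counts in any sample. Col3a1 was higher in NRK-52E cells than in NRK-49F cells, at 6149 ± 1378 against 1212 ± 111 FPM at pH 7.4. Of the 9 tested fibroblast markers, 8 were lower in NRK-52E cells at pH 7.4 and 1 was higher. The lines are therefore called by their names below. Kdr, an endothelial marker, had no count, and Ptprc, which marks leukocytes, had at most 6.

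The marker lists moved with pH too. Their summed level in NRK-52E cells had a median of 491 FPM at pH 7.4 and 217 FPM at pH 6.0 for the epithelial list, with both of its 2 tested genes lower, and of 6891 and 2821 FPM for the fibroblast list, with all 9 of its tested genes lower. In NRK-49F cells the medians were 779 and 593 FPM for the epithelial list, with its 2 tested genes lower, and 19591 and 15183 FPM for the fibroblast list, with 2 of 9 lower. The summed leukocyte list had medians of 4.08 and 8.53 FPM in NRK-52E cells and of 32.0 and 231 FPM in NRK-49F cells, where Cd68 made up nearly all of it. The endothelial list summed to at most 1.83 FPM in any sample. With transcript length left aside, the gene with the highest mean FPM over all samples was Krt8, Vim, Pecam1 and Cd68 in the 4 lists, while in NRK-52E cells it was Col3a1 for the fibroblast list at both pH values and Tie1 for the endothelial list at pH 7.4. In bulk samples, fewer cells of a type and less RNA per cell cannot be told apart, and the part of these markers in the results below was not tested.

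The replicates A021, A022 and A033 of NRK-52E cells at pH 7.4 stood apart from the other 3 by genes that were high in NRK-49F cells. Col1a2, a fibrillar collagen gene, was at 10.9 to 52.9 FPM in these 3 and at 0.415 to 0.654 FPM in the other 3. For each of the 9 tested AP-1 and immediate early genes, the range of these 3 samples overlapped the range of the other 3. Ranges of 3 samples often overlap, and no share of all genes is given beside this. The overlap therefore cannot show that the 9 genes were unaffected in A021, A022 and A033. Leaving out A021, A022 and A033 was a choice made after seeing the data. Without these 3 samples Egr2 was regulated no longer in NRK-52E cells (−0.69, edgeR, adjusted p = 0.169). In NRK-49F cells Fosl2 then passed the threshold no longer (edgeR, adjusted p = 0.0556), with its log2 fold change still at −0.50. In the same fit 5 of the 9 fibroblast markers were lower in NRK-52E cells, with a median log2 fold change of −0.99 instead of −1.88.

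In NRK-52E cells, Jun, Ier3 and Egr2 fell and Jund rose under acidosis, so that 4 of the 9 tested members were regulated. Over all genes, 61.2% were regulated in that comparison, 24.7% higher and 36.6% lower at pH 6.0. In NRK-49F cells, Fosl1, Ier3 and Jun rose and Fosl2 fell, again 4 of 9, beside 28.9% of all genes, 14.5% higher and 14.4% lower. The change under acidosis differed between the lines for Jun, Fosl1, Ier3 and Jund, 4 of 9 members, beside 41.4% of all genes. The median log2 fold change of the 9 members was −0.28 in NRK-52E cells, against −0.12 for all genes tested, and −0.27 in NRK-49F cells, against 0.00. With the sample group as a block, 5 of 9 were regulated in NRK-52E cells, Fosl2 being added, beside 63.6% of all genes, and 6 of 9 in NRK-49F cells, Fosb and Egr1 being added, beside 33.4%.

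Between the lines at pH 7.4, 5 of the 9 members differed, Fos, Fosl2 and Ier3 higher in NRK-52E cells and Fosl1 and Jun lower, beside 68.8% of all genes. At pH 6.0, 6 of 9 differed, with Fos, Fosl2 and Jund higher in NRK-52E cells and Fosl1, Jun and Ier3 lower, beside 75.5% of all genes. The change under acidosis differed between both sample groups of NRK-52E cells for Egr1 and Egr2, 2 of 9 members, beside 9.91% of 15478 genes tested. Between both sample groups of NRK-49F cells 0 of 9 members and 0% of all genes differed by edgeR, with 624 genes at an unadjusted p under 0.05 and 10 genes regulated by DESeq2.

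**Figure D1:**
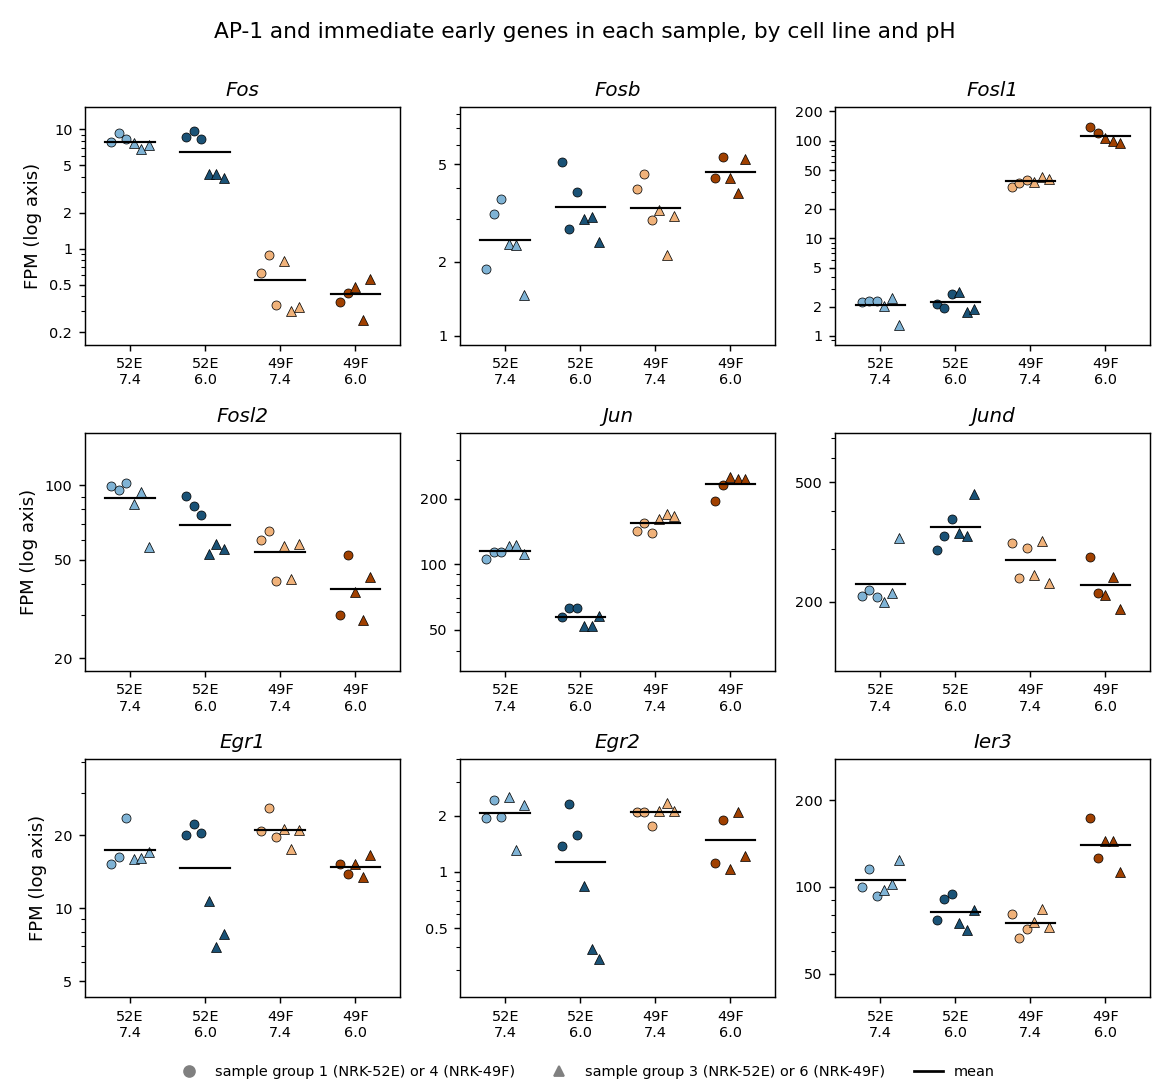
Level in FPM (log axis) of the 9 tested genes in each of the 23 samples, by cell line (52E and 49F) and pH, with circles for sample groups 1 and 4, triangles for sample groups 3 and 6 and a line at each mean. Jun and Ier3 lie lower at pH 6.0 in NRK-52E cells and higher in NRK-49F cells, Fosl1 is higher in all 5 acidotic NRK-49F samples, and Fos, Fosl2, Egr1 and Egr2 at pH 6.0 in NRK-52E cells split by sample group, as do Fos and Fosl2 at pH 7.4. Jun in NRK-49F cells separates by sample group at both pH values.

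Fosl1 encodes FRA-1, a FOS subunit that lacks the transactivation domain of FOS and that accumulates in growing and migrating cells (ENSRNOG00000020552, chromosome 1). In NRK-49F cells at pH 7.4 its level was 33.5 FPM in the lowest sample, 38.9 FPM at the median and 42.1 FPM in the highest. At pH 6.0 it was 139.7 FPM in A042, 119 in A043, 106 in A054, 99.8 in A055 and 94.0 in A056. All 5 samples at pH 6.0 lay above all 6 at pH 7.4, and both samples of sample group 4 lay above the 3 of sample group 6. The rise came to a log2 fold change of 1.54 ± 0.12, or 2.90-fold (edgeR, adjusted p = 1.45e-09).

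In NRK-52E cells Fosl1 was low, at 1.30, 2.25 and 2.45 FPM (lowest, median, highest) at pH 7.4 and at 1.77, 2.02 and 2.83 FPM at pH 6.0. The ranges overlapped, with A026 and A036 at pH 6.0 above every control and the control A035 below all other samples. The log2 fold change was 0.08 ± 0.15 (95% interval −0.24 to 0.39, edgeR, adjusted p = 0.677). The 2 changes differed by −1.46 ± 0.19 on the log2 scale, taken as NRK-52E less NRK-49F cells here and below (edgeR, adjusted p = 2.07e-06). Fosl1 was 18.2-fold lower in NRK-52E cells at pH 7.4 (log2 fold change −4.19 ± 0.14, edgeR, adjusted p = 1.23e-17) and 50.1-fold lower at pH 6.0 (−5.65 ± 0.15, edgeR, adjusted p = 1.54e-19). No sample of one line reached the range of the other.

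Fos encodes the founding FOS subunit, whose transcript decays within minutes (ENSRNOG00000008015, chromosome 6). In NRK-52E cells it was at 6.82, 7.68 and 9.20 FPM (lowest, median, highest) at pH 7.4 and at 3.90, 6.19 and 9.61 FPM at pH 6.0. The samples at pH 6.0 fell into a high set, all of sample group 1 at 8.18 to 9.61 FPM, and a low set, all of sample group 3 at 3.90 to 4.19 FPM. The controls separated in the same order by less, at 7.75 to 9.20 and 6.82 to 7.60 FPM. Over both sample groups the log2 fold change was −0.28 ± 0.23 (edgeR, adjusted p = 0.312). In fits of sample groups 3 and 6 only or of sample groups 1 and 4 only, from which all values within a sample group come, Fos fell within sample group 3, by a log2 fold change of −0.83 ± 0.27 (edgeR, adjusted p = 0.0197), while the value within sample group 1 was 0.07 ± 0.20 (edgeR, adjusted p = 0.793). The difference between the sample groups was −0.90 ± 0.33 (edgeR, adjusted p = 0.0936), and it passed the threshold with DESeq2 (adjusted p = 0.00331) and in edgeR without replicate A051 (adjusted p = 0.0438). A051 is an NRK-49F control, so it bears on this value only through the joint fit of both lines.

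In NRK-49F cells Fos had only 5 to 21 counts in a sample at pH 7.4, or 0.300, 0.484 and 0.890 FPM (lowest, median, highest). At pH 6.0 it had 7 to 13 counts, or 0.357 FPM in A042, 0.427 in A043, 0.482 in A054, 0.253 in A055 and 0.556 in A056. The samples of both pH values overlapped, and a change was not detectable at this depth (log2 fold change −0.44 ± 0.37, 95% interval −1.21 to 0.33, edgeR, adjusted p = 0.402). Fos was 13.9-fold higher in NRK-52E than in NRK-49F cells at pH 7.4 (log2 fold change 3.80 ± 0.29, edgeR, adjusted p = 1.94e-11) and 15.6-fold higher at pH 6.0 (3.96 ± 0.32, edgeR, adjusted p = 6.92e-11). Every NRK-52E sample lay above every NRK-49F sample.

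Fosb encodes a FOS subunit with a full transactivation domain (ENSRNOG00000046667, chromosome 1). Its levels in NRK-52E cells were 1.47, 2.36 and 3.62 FPM (lowest, median, highest) at pH 7.4 and 2.42, 3.01 and 5.10 FPM at pH 6.0. The NRK-49F levels were 2.13, 3.16 and 4.58 FPM at pH 7.4, and 4.38 FPM in A042, 5.37 in A043, 4.38 in A054, 3.83 in A055 and 5.28 in A056 at pH 6.0. The groups overlapped in both lines. The log2 fold change was 0.44 ± 0.22 in NRK-52E cells (edgeR, adjusted p = 0.0871) and 0.48 ± 0.23 in NRK-49F cells (edgeR, adjusted p = 0.119), and Fosb was not regulated in either. Without replicate A023 the value in NRK-52E cells passed the threshold, at 0.59 (edgeR, adjusted p = 0.0277), while without A024 it was 0.29 (edgeR, adjusted p = 0.259), and with the sample group as a block so did the value in NRK-49F cells (edgeR, adjusted p = 0.0485). The interval of the difference between the lines ran from −0.70 to 0.63 on the log2 scale at 95%.

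Fosl2 encodes FRA-2, the other FOS subunit without that domain (ENSRNOG00000068412, chromosome 6). In NRK-49F cells it was at 41.2, 57.3 and 65.5 FPM (lowest, median, highest) at pH 7.4, and at 29.9 FPM in A042, 52.3 in A043, 37.2 in A054, 28.5 in A055 and 42.4 in A056 at pH 6.0. A043 and A056 lay within the control range and the other 3 samples below it. Fosl2 fell in NRK-49F cells by a log2 fold change of −0.50 ± 0.18 (edgeR, adjusted p = 0.0393). That call was lost without any single replicate of A039, A040, A042, A051, A053, A054 and A055, with adjusted p from 0.0644 to 0.115 by edgeR and log2 fold changes from −0.50 to −0.41.

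In NRK-52E cells Fosl2 was at 56.3, 94.9 and 101.7 FPM (lowest, median, highest) at pH 7.4 and at 52.8, 67.0 and 90.2 FPM at pH 6.0. The lowest control sample, A035, lay far below the other 5, and at pH 6.0 sample group 1 held the 3 high samples, at 75.9 to 90.2 FPM, and sample group 3 the 3 low ones, at 52.8 to 58.1 FPM. The controls separated by sample group too, at 95.7 to 101.7 and 56.3 to 94.1 FPM, and the change under acidosis was not found to differ between the sample groups (−0.25 ± 0.29, edgeR, adjusted p = 0.678). The log2 fold change of −0.36 ± 0.17 did not pass the test (edgeR, adjusted p = 0.0726). It did so at −0.46 without A035 (edgeR, adjusted p = 0.0165), at −0.45 without A024 (edgeR, adjusted p = 0.0308) and with the sample group as a block (edgeR, adjusted p = 0.0265). Between the lines the change of Fosl2 differed by 0.15 (95% interval −0.37 to 0.66, edgeR, adjusted p = 0.676). Fosl2 was higher in NRK-52E than in NRK-49F cells at pH 7.4 (log2 fold change 0.72 ± 0.17, edgeR, adjusted p = 6.77e-04), where A035 overlapped the NRK-49F range, and at pH 6.0 (0.86 ± 0.18, edgeR, adjusted p = 1.60e-04).

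Jun encodes c-JUN, the JUN subunit that drives its own gene through AP-1 and that is phosphorylated by the JNK kinases (ENSRNOG00000026293, chromosome 5). In NRK-52E cells it was at 105.2, 114 and 123 FPM (lowest, median, highest) at pH 7.4 and at 51.8, 57.2 and 62.8 FPM at pH 6.0. All 6 acidotic samples lay far below all 6 controls. Jun fell by a log2 fold change of −1.001 ± 0.08, a fold of 0.500 (edgeR, adjusted p = 7.56e-11).

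In NRK-49F cells Jun moved the other way. It was at 139, 157 and 169.7 FPM (lowest, median, highest) at pH 7.4, and at 196 FPM in A042, 232 in A043, 250.5 in A054, 246 in A055 and 246 in A056 at pH 6.0. All 5 acidotic samples lay above all 6 controls, A042 closest to them. The samples separated by sample group at both pH values. Sample group 4 was at 138.7 to 153.6 FPM and sample group 6 at 160.5 to 169.7 FPM at pH 7.4. At pH 6.0 they were at 195.5 to 231.5 and 245.6 to 250.5 FPM. The rise was 1.51-fold (log2 fold change 0.59 ± 0.08, edgeR, adjusted p = 3.01e-06). Jun differed between the lines by −1.59 ± 0.11 in its log2 fold change (edgeR, adjusted p = 1.05e-10), and it ranged from −1.72 to −1.43 over the alternatives other than leaving out single samples. The level of Jun was lower in NRK-52E than in NRK-49F cells at pH 7.4 by a log2 fold change of −0.44 ± 0.07 (edgeR, adjusted p = 1.41e-05) and at pH 6.0 by −2.03 ± 0.08 (edgeR, adjusted p = 8.83e-17). The ranges of the lines did not meet at either pH.

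Jund encodes JUND, a JUN subunit found in most resting cells and the least dependent on a stimulus (ENSRNOG00000019568, chromosome 16). In NRK-52E cells it was at 200.2, 211 and 326 FPM (lowest, median, highest) at pH 7.4 and at 298, 335 and 456 FPM at pH 6.0. The highest control sample, A035, was the only control that reached the acidotic range, and the other 5 lay below it. Jund rose by a log2 fold change of 0.63 ± 0.13 (edgeR, adjusted p = 1.70e-04), and by 0.76 without A035 (edgeR, adjusted p = 5.08e-06).

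Jund in NRK-49F cells was at 230.4, 274 and 318 FPM (lowest, median, highest) at pH 7.4, and at 283 FPM in A042, 215 in A043, 211 in A054, 241 in A055 and 189 in A056 at pH 6.0. A042 and A055 lay within the control range and the other 3 below it. The log2 fold change of −0.27 ± 0.14 did not pass the test (edgeR, adjusted p = 0.139). Jund thus differed in its change between the lines, by 0.91 ± 0.19 (edgeR, adjusted p = 4.26e-04). At pH 6.0 Jund was higher in NRK-52E than in NRK-49F cells, with every sample above (log2 fold change 0.64 ± 0.14, edgeR, adjusted p = 1.72e-04), and at pH 7.4 the ranges overlapped (−0.26 ± 0.13, edgeR, adjusted p = 0.0724).

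Junb, the gene of the remaining JUN subunit, was listed at 0 in all 23 samples (ENSRNOG00000067725, chromosome 19). The table gives this identifier the biotype pseudogene. No level, fold change or test could be given for it, and the count of 0 was not read as absence of the transcript.

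**Figure D2:**
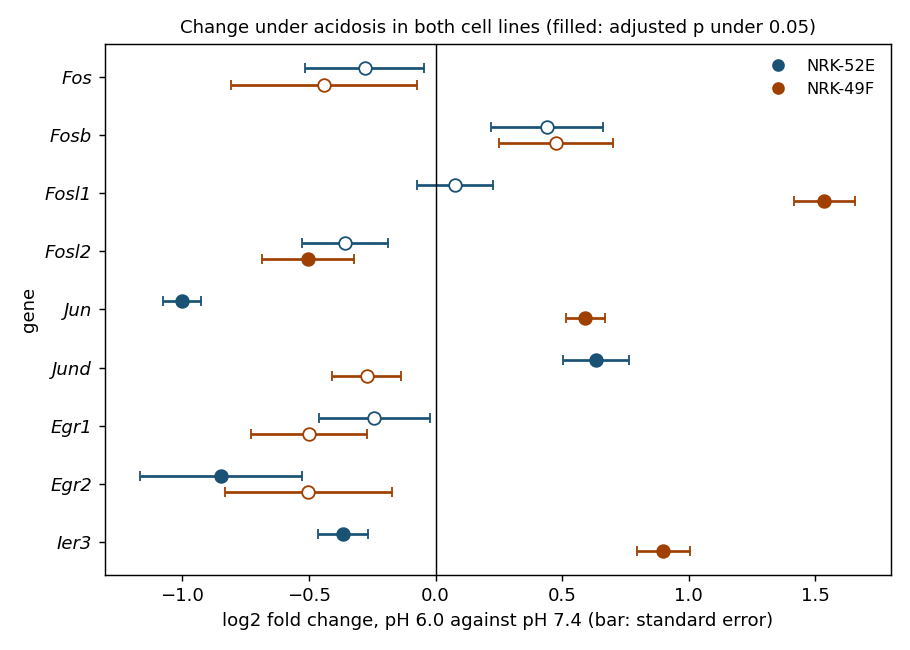
Log2 fold change from pH 7.4 to pH 6.0 of the 9 tested genes in NRK-52E cells (blue) and NRK-49F cells (brown), with bars for the standard error and filled points where the Benjamini-Hochberg adjusted p of edgeR's quasi-likelihood test was under 0.05. Jun and Ier3 have filled points on opposite sides of 0 in the 2 lines.

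Egr1 encodes a zinc finger factor that binds GC-rich promoters and is induced by serum through SRF (ENSRNOG00000019422, chromosome 18). In NRK-52E cells it was at 15.3, 16.3 and 23.6 FPM (lowest, median, highest) at pH 7.4 and at 6.90, 15.4 and 22.3 FPM at pH 6.0. The acidotic samples split by sample group, the 3 of sample group 1 at 20.1 to 22.3 FPM and the 3 of sample group 3 at 6.90 to 10.7 FPM, and the highest control was A023. Over both sample groups the log2 fold change was −0.24 ± 0.22 (edgeR, adjusted p = 0.348). Within sample group 3 Egr1 fell by a log2 fold change of −0.95 ± 0.16 (edgeR, adjusted p = 2.98e-04), while the value within sample group 1 was 0.19 ± 0.17 (edgeR, adjusted p = 0.377). The difference between the sample groups was −1.14 ± 0.24 (edgeR, adjusted p = 0.00421), and its adjusted p stayed at or under 0.0167 by edgeR with any single sample left out.

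In NRK-49F cells Egr1 was at 17.5, 20.95 and 25.8 FPM (lowest, median, highest) at pH 7.4, and at 15.2 FPM in A042, 13.9 in A043, 15.2 in A054, 13.4 in A055 and 16.7 in A056 at pH 6.0. All 5 acidotic samples lay below all 6 controls. The log2 fold change of −0.50 ± 0.23 did not pass the test in the joint fit of both lines (edgeR, adjusted p = 0.108). With the sample group as a block it did (edgeR, adjusted p = 0.0367), as it did with NRK-49F cells fitted alone (edgeR, adjusted p = 0.00218) and within sample group 4 (edgeR, adjusted p = 0.0475), but not within sample group 6 (−0.40 ± 0.16, edgeR, adjusted p = 0.0989). For the lines the difference was 0.26 ± 0.32 over all samples (edgeR, adjusted p = 0.550). It was 0.80 within sample groups 1 and 4 (edgeR, adjusted p = 0.0455) and −0.55 within sample groups 3 and 6.

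Egr2 encodes a related factor of the same family (ENSRNOG00000000640, chromosome 20). In NRK-52E cells it was at 1.31, 2.11 and 2.50 FPM (lowest, median, highest) at pH 7.4 and at 0.345, 1.11 and 2.29 FPM at pH 6.0. Here too the acidotic samples of sample group 1, at 1.38 to 2.29 FPM, lay above those of sample group 3, at 0.345 to 0.838 FPM, and only the former overlapped the controls. Egr2 fell by a log2 fold change of −0.85 ± 0.32 (edgeR, adjusted p = 0.0252). The call was lost without any single replicate of A033, A036, A037 and A038, with adjusted p from 0.0507 to 0.0613 by edgeR and log2 fold changes from −0.78 to −0.66, and with NRK-52E cells fitted alone (edgeR, adjusted p = 0.0910).

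Within sample group 3 Egr2 fell by a log2 fold change of −1.95 ± 0.42 (edgeR, adjusted p = 0.00159), and within sample group 1 the value was −0.26 ± 0.28 (edgeR, adjusted p = 0.468). The difference between the sample groups was −1.68 ± 0.49 (edgeR, adjusted p = 0.0341). It was not past the threshold without any single replicate of A021, A023, A025, A026, A033, A035, A037 and A038, with adjusted p from 0.0526 to 0.0987 by edgeR. In NRK-49F cells Egr2 was at 1.76, 2.101 and 2.33 FPM (lowest, median, highest) at pH 7.4, and at 1.12 FPM in A042, 1.89 in A043, 1.04 in A054, 2.09 in A055 and 1.22 in A056 at pH 6.0. A043 and A055 lay within the control range and the other 3 below it, with a log2 fold change of −0.50 ± 0.33 (edgeR, adjusted p = 0.275).

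The sample groups of NRK-52E cells thus gave different counts of regulated members. Of the 2 fits, that with sample group 1 gave 2 of 9, Jun with a log2 fold change of −0.86 and Jund with 0.67, beside 46.0% of 15273 genes tested. That with sample group 3 gave 7 of 9, with Jun, Egr1, Egr2, Fos, Fosl2 and Ier3 lower and Jund higher, beside 55.9% of 14666. These counts do not test a difference between the sample groups. By edgeR's test of the difference itself only Egr1 and Egr2 were called. Fos (edgeR, adjusted p = 0.0936), Fosl2 (edgeR, adjusted p = 0.678) and Ier3 (edgeR, adjusted p = 0.432) were not. Of the summed marker lists, 2 had separate ranges in the sample groups at both pH values. At pH 6.0 the fibroblast list was at 2159 to 2294 FPM in sample group 1 and 3348 to 3535 FPM in sample group 3, and the leukocyte list at 9.78 to 9.88 and 5.72 to 7.28 FPM. At pH 7.4 they were at 5635 to 6107 and 7676 to 8859 FPM, and at 4.72 to 5.20 and 2.96 to 3.44 FPM. The ranges of the epithelial and endothelial lists overlapped. What the sample groups mark is not stated in the labels, and the part of these markers in the split was not tested.

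Ier3 encodes IEX-1, a small protein of the early response that acts on cell survival and ERK signalling (ENSRNOG00000000827, chromosome 20). In NRK-49F cells it was at 66.4, 74.1 and 84.1 FPM (lowest, median, highest) at pH 7.4, and at 174 FPM in A042, 126 in A043, 144 in A054, 144 in A055 and 113 in A056 at pH 6.0. All 5 acidotic samples lay above all 6 controls. Ier3 rose 1.87-fold (log2 fold change 0.90 ± 0.10, edgeR, adjusted p = 4.97e-07).

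In NRK-52E cells Ier3 was at 92.9, 101 and 124 FPM (lowest, median, highest) at pH 7.4 and at 70.8, 79.9 and 94.8 FPM at pH 6.0. The ranges touched only at their edges. Ier3 fell by a log2 fold change of −0.36 ± 0.10 (edgeR, adjusted p = 0.00278). The value was −0.23 ± 0.14 within sample group 1 (edgeR, adjusted p = 0.200) and −0.50 ± 0.12 within sample group 3 (edgeR, adjusted p = 0.00399). These 2 values were not found to differ (−0.27 ± 0.19, edgeR, adjusted p = 0.432). The change of Ier3 differed between the lines by −1.26 ± 0.14 (edgeR, adjusted p = 2.44e-07). The order of the lines turned with pH. At pH 7.4 Ier3 was higher in NRK-52E than in NRK-49F cells (log2 fold change 0.49 ± 0.10, edgeR, adjusted p = 1.26e-04), and at pH 6.0 it was lower (−0.78 ± 0.10, edgeR, adjusted p = 3.25e-07), with no overlap of the lines at either pH.

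The spread between samples differed among the members. In NRK-52E cells at pH 7.4 the SD was 5.55% of the mean for Jun and 32.1% for Fosb, with the other 7 in between. At pH 6.0 it was 8.47% for Jun, and it was 40.6% for Fos, 47.5% for Egr1, 66.7% for Egr2 and 22.9% for Fosl2, whose acidotic samples split by sample group, as did the controls of Fos and Fosl2. In NRK-49F cells at pH 6.0 it ran from 8.54% for Egr1 to 32.8% for Egr2.

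Some members varied together between samples of the same line and pH. After the mean of each line and pH was subtracted, Pearson's r over the 23 samples was 0.754 for Egr1 with Egr2, 0.743 for Fos with Egr1, 0.728 for Fosb with Fosl2, 0.697 for Fos with Fosl2 and 0.695 for Jund with Ier3. It was −0.705 for Fosl2 with Jund. These values keep the split by sample group. With the mean of each sample group at each pH subtracted instead, r was 0.195 for Egr1 with Egr2, 0.430 for Fos with Egr1, 0.661 for Fosb with Fosl2, 0.565 for Fos with Fosl2, 0.844 for Jund with Ier3 and −0.792 for Fosl2 with Jund. Replicate A035 held the lowest Fosb, Fosl1 and Fosl2 and the highest Jund and Ier3 among the NRK-52E controls. Replicates A035, A052 and A042 had both the highest Jund and the lowest TMM factor of their line and pH (0.980, 0.877 and 0.804). In NRK-52E cells at pH 6.0 the highest Jund was in A038 (factor 1.023) and the lowest factor in A026 (1.020). The correlations share libraries, their depth and their scaling and are given as a description, and the part of the scaling was not tested.

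The genes most like each member over all 23 samples, among 10848 genes averaging at least 5 FPM, were found by Pearson's r of log2 values, which mostly follows the 4 group levels. Fosl1 was followed most closely by Hmga1, which encodes a chromatin protein (r = 0.993), and Meltf (r = 0.991), Fos by Fam184a (r = 0.988) and Pdgfb (r = 0.986), and Jun by C2cd4c (r = 0.984) and Tbc1d19 (r = 0.981). Fosl2 was followed by Nacc2 (r = 0.961) and Deptor (r = 0.959), Jund by Atp6v0c (r = 0.949) and Hm13 (r = 0.942), and Ier3 by Prdx1 (r = 0.903) and Bpnt1 (r = 0.883). The closest genes were less alike for Egr2, with Nfatc4 and Fbln5 (r = 0.879 each), Egr1, with F2r and Ninl (r = 0.876 each), and Fosb, with Prkd2 (r = 0.849).

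After the means of line and pH, though not those of the sample groups, were subtracted, the closest genes were Spred2 (r = 0.962) and Rab3gap2 (r = 0.950) for Fosl2, Cltb (r = 0.950) and Ndufa6 (r = 0.937) for Jund, and Dgkz (r = 0.943) and Plekha6 (r = 0.934) for Egr1. They were Zfp316 (r = 0.849) and Dmd (r = 0.837) for Fos, Tmem268 (r = 0.864) and Elmo2 (r = 0.830) for Fosb, Antxr2 (r = 0.821) and Foxc1 (r = 0.813) for Jun, and Pms2 (r = 0.741) and Akr1b10 (r = 0.707) for Fosl1. Nfatc4 was again closest to Egr2 (r = 0.841). For Ier3 the closest was a histone H3 gene (r = 0.952), and the next for Egr2 and Ier3 had no symbol.

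The other bZIP proteins that pair with FOS or JUN were read from a list of 12 genes, of which 9 were tested. In NRK-52E cells 3 of 9 were higher and 2 lower at pH 6.0, with a median log2 fold change of 0.09, and without A021, A022 and A033 3 were higher and 1 lower, with a median of 1.26. These medians count Batf2 and Batf3, which were under 1 FPM there, and for the 7 partners with at least 1 FPM the median was 0.05 with all samples and 0.03 without those 3. In NRK-49F cells 3 were higher and 1 lower, with a median of 0.23, and for the 8 partners with at least 1 FPM there the median was 0.05. Beside these counts and those of the lists below stand the shares of all genes given above, from the fit with all samples. They were 24.7% higher with 36.6% lower for NRK-52E cells, and 14.5% with 14.4% for NRK-49F cells. Since the lists were chosen with earlier results of these data known, setting them beside all genes is a description only. Atf3, a stress-induced partner of JUN, went from a median of 3.49 FPM to 14.6 FPM in NRK-52E cells (log2 fold change 2.06 ± 0.19, edgeR, adjusted p = 1.52e-09) and from 3.28 to 33.5 FPM in NRK-49F cells (3.40 ± 0.19, edgeR, adjusted p = 8.43e-12). In both lines every acidotic sample of Atf3 lay above every control. The changes of Atf3 in the lines differed by −1.34 ± 0.26 (edgeR, adjusted p = 2.30e-04). The small MAF factor gene Mafg rose in both lines, by 1.23 ± 0.13 in NRK-52E and 0.79 ± 0.14 in NRK-49F cells, and Maff rose in NRK-52E cells by 1.34 ± 0.09. Maf fell in NRK-52E cells (−2.16 ± 0.48) from 12 to 55 counts in a sample to 0 to 20, Atf2 fell there by −0.26 ± 0.09, a call lost without A021, A022 and A033 (−0.19, edgeR, adjusted p = 0.158), and Jdp2, which represses AP-1, fell in NRK-49F cells (−0.73 ± 0.11). At these low counts the change of Maf in NRK-52E cells differed between sample groups 3 and 1 by −3.89 ± 1.10 (edgeR, adjusted p = 0.0291).

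Of 28 other immediate early genes, 26 were tested. In NRK-52E cells 6 were higher and 8 lower, with a median log2 fold change of −0.10, and in NRK-49F cells 2 were higher and 7 lower, with a median of −0.07. Ier5, a regulator of heat shock factor, rose in both lines, by 1.70 ± 0.12 in NRK-52E and 1.17 ± 0.12 in NRK-49F cells. Plk2, a polo-like kinase gene, rose in NRK-52E cells (1.62 ± 0.24) and fell in NRK-49F cells (−1.27 ± 0.26), a difference of 2.89 ± 0.35 (edgeR, adjusted p = 7.04e-07). Ccn2, which encodes a matrix protein of fibrosis, fell in both lines, by −1.12 ± 0.22 and −3.04 ± 0.25, and the related Ccn1 fell in NRK-49F cells (−2.44 ± 0.19). The nuclear receptor gene Nr4a2 rose in NRK-52E cells (1.83 ± 0.18), where Phlda1 (−1.18 ± 0.28) and the growth regulator Myc (−0.93 ± 0.09) fell, and Klf10 rose in NRK-49F cells (0.38 ± 0.08). Klf10 fell in NRK-52E cells, also without A021, A022 and A033 (−0.41, edgeR, adjusted p = 0.00205). Between the sample groups of NRK-52E cells the change differed for 6 of the 26 genes, beside 9.91% of all genes. As sample group 3 minus sample group 1, it was 2.08 ± 0.16 for Plk2 (edgeR, adjusted p = 1.76e-07) and −1.37 ± 0.23 for Phlda1 (edgeR, adjusted p = 6.91e-04). For Ccn2 it was −0.65 ± 0.17 (edgeR, adjusted p = 0.0154).

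Of 17 genes for the kinases and SRF factors upstream of the immediate early genes, 16 were tested and Mapk3 was listed at 0. In NRK-52E cells 2 were higher and 7 lower, with a median of −0.29, and in NRK-49F cells 3 were higher and 2 lower, with a median of −0.09. Srf, the gene of serum response factor itself, fell in NRK-49F cells (−0.82 ± 0.08) and in NRK-52E cells (−0.66 ± 0.07), and Mrtfa, the gene of its actin-sensing coactivator, fell in both (−0.73 ± 0.15 in NRK-52E and −0.56 ± 0.16 in NRK-49F cells). Map2k1, which encodes the ERK kinase MEK1, rose in both lines, by 0.66 ± 0.05 in NRK-52E and 0.17 ± 0.06 in NRK-49F cells. In NRK-52E cells Elk1 rose (0.33 ± 0.11), though not past the threshold without A021, A022 and A033 (0.34, edgeR, adjusted p = 0.0582), and Elk3 (−1.51 ± 0.21) and Map2k2 (−0.67 ± 0.14) fell. The change of Elk3 there differed between sample groups 3 and 1 by −0.97 ± 0.15 (edgeR, adjusted p = 3.81e-04). In NRK-49F cells the stress kinase genes Mapk9 (0.37 ± 0.10) and Mapk14 (0.20 ± 0.07) rose, Mapk14 at the same 0.20 but past the threshold only with those 3 NRK-52E samples in the fit (edgeR, adjusted p = 0.0547 without them). Both genes fell in NRK-52E cells, also without those samples (Mapk9 −0.31, edgeR, adjusted p = 0.0293, and Mapk14 −0.45, edgeR, adjusted p = 1.98e-04).

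All 8 genes for corepressors of EGR factors and for turnover of AP-1 proteins or early transcripts were tested. In NRK-52E cells 3 were higher and 3 lower, with a median of −0.16, and in NRK-49F cells 1 was higher and 2 lower, with a median of −0.03. Cop1 (0.79 ± 0.07) and Itch (0.52 ± 0.11), genes of ubiquitin ligases for JUN, and Nab1 (0.33 ± 0.09), an EGR corepressor gene, rose in NRK-52E cells. Det1, whose product works with COP1, fell in both lines, with −1.04 ± 0.11 in NRK-52E and −0.41 ± 0.11 in NRK-49F cells. Zfp36l1, for a protein that destabilises AU-rich transcripts, fell in NRK-52E cells (−0.29 ± 0.11) and rose in NRK-49F cells (0.32 ± 0.12), and neither call remained without A021, A022 and A033 (−0.28, edgeR, adjusted p = 0.112, and 0.32, edgeR, adjusted p = 0.0661). Zfp36l2 fell in NRK-52E cells (−0.92 ± 0.12) and the corepressor gene Nab2 in NRK-49F cells (−0.22 ± 0.08), the latter at the same −0.22 but not past the threshold without those 3 NRK-52E samples in the fit (edgeR, adjusted p = 0.0529).

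Known targets of AP-1 and EGR factors were read from a list of 20 genes, of which 19 were tested. In NRK-49F cells 12 were higher and 1 lower at pH 6.0, beside 14.5% and 14.4% of all genes, with a median log2 fold change of 0.91 against 0.00 for all genes tested, and without A021, A022 and A033 13 were higher and 2 lower. For NRK-52E cells 9 were lower and 3 higher, beside 36.6% and 24.7%, with a median of −0.49 against −0.12, and without those samples 3 were higher and 4 lower. For 13 of the 19, beside 41.4% of all genes, the change differed between the lines, in 12 with the lower value in NRK-52E cells and in 1 with the higher, and without those samples for 11. The shares beside these counts are those of the fit with all samples. This list of targets was chosen with earlier results of these data known. Its counts and medians beside those of all genes are therefore a description, and an excess over all genes was not tested. No share of all genes is given for the fit without A021, A022 and A033, so its counts cannot be set against one. The matrix metalloproteinase genes Mmp13 (2.94 ± 0.30, edgeR, adjusted p = 5.92e-07) and Mmp10 (1.74 ± 0.25, edgeR, adjusted p = 1.17e-04) rose in NRK-49F cells, and in NRK-52E cells Mmp13 had at most 1 count and Mmp10 none. In NRK-49F cells Mmp13 went from a median of 1.24 to 9.78 FPM and Mmp10 from 1.39 to 4.66 FPM, with no overlap for either. Spp1, the osteopontin gene, rose there from a median of 1812 to 7034 FPM (1.89 ± 0.48, edgeR, adjusted p = 0.00458).

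In NRK-52E cells Spp1 fell by −3.27 ± 0.60 (edgeR, adjusted p = 5.11e-05), but only with A021, A022 and A033, which held 9.58 to 25.8 FPM, and without them the log2 fold change was −0.48 (edgeR, adjusted p = 0.142). Mmp3, at 46 to 191 counts in those 3 samples and 0 to 8 in the other 3, and Ccl2, at 12 to 123 and 0 to 3, had at most 2 counts at pH 6.0, so no fold change is given, and neither call remained without them. Vegfa rose in NRK-52E cells (0.80 ± 0.12), as did Cd44 (0.73 ± 0.31), a hyaluronan receptor gene with 15 to 96 counts at pH 7.4. Pdgfa rose in NRK-52E cells (0.53 ± 0.11) and fell in NRK-49F cells (−0.41 ± 0.12). Hmga1, the gene closest to Fosl1, was also on this list and rose in NRK-49F cells (1.68 ± 0.15) but had a value of 0.05 ± 0.15 in NRK-52E cells, a difference of −1.63 ± 0.21 (edgeR, adjusted p = 1.41e-06).

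**Figure D3:**
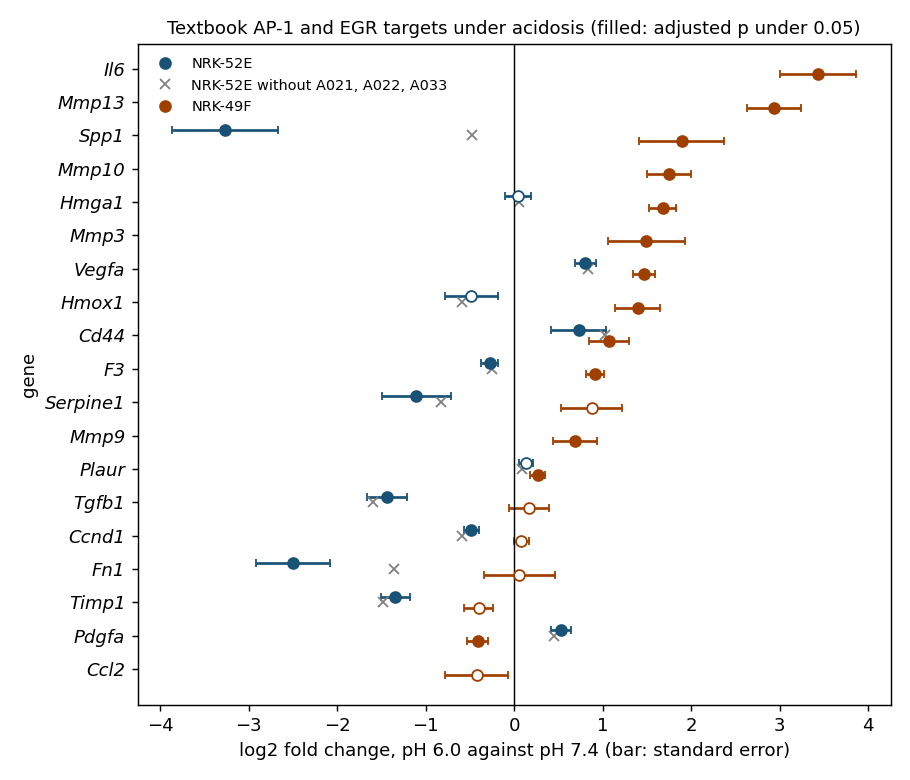
Log2 fold change from pH 7.4 to pH 6.0 of the 19 tested target genes in NRK-52E cells (blue, grey crosses without A021, A022 and A033) and NRK-49F cells (brown), with bars for the standard error and filled points for an adjusted p under 0.05 by edgeR. Points are left out where a line had a mean under 1 FPM at both pH values or at most 3 counts in every sample of a pH, and 12 points of NRK-49F cells are filled on the side of higher levels.

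Promoters were read from RefSeq (build GRCr8) as the 250 bases before each gene's start, and 7 of the 10 members were matched by symbol. Both strands were searched for the AP-1 site TGACTCA, the CRE-like site TGACGTCA, the EGR sites GCGTGGGCG and GCGGGGGCG, and the CArG box that SRF binds. None of these motifs contains another. Of 33469 promoters of the same length, 4.05% held TGACTCA, 1.59% TGACGTCA, 0.478% GCGTGGGCG, 2.45% GCGGGGGCG and 1.5% a CArG box. TGACTCA was in 0 of the 7 members' windows. Jund held TGACGTCA at −221 to −214 and GCGTGGGCG at −76 to −68, counted from the start, and Fosl2 held GCGGGGGCG at −249 to −241. CArG boxes were in Egr1, at −105 to −96 and −83 to −74, and in Egr2, at −83 to −74.

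The windows of Egr1, Egr2 and Jund are shown, because the acidotic NRK-52E samples of the first pair split by sample group together and Jund rose there, with the motifs in capitals, 5′ to 3′ on the gene's strand. They lie at chr18:26736828-26737077 (+ strand), chr20:21054442-21054691 (− strand) and chr16:18769772-18770021 (− strand).
Egr1: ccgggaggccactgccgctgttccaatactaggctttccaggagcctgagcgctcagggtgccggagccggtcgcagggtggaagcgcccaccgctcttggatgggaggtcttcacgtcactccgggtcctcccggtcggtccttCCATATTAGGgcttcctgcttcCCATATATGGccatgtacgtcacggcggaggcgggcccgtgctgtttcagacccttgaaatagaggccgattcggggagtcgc
Egr2: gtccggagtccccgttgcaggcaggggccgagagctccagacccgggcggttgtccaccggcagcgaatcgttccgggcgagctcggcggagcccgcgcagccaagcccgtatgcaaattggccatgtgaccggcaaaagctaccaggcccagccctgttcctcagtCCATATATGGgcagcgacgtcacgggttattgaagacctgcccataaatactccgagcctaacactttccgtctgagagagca
Jund: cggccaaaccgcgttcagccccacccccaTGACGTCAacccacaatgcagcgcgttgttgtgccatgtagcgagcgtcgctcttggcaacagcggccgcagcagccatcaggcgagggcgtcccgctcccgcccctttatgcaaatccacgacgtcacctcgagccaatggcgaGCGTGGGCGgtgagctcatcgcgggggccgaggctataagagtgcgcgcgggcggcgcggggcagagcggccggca

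Of the 20 target genes 13 were matched, and 4 held TGACTCA, namely Mmp3 at −71 to −65, Mmp10 at −61 to −55, Mmp13 at −66 to −60 and Plaur at −83 to −77. All 4 rose in NRK-49F cells, with log2 fold changes of 1.49 ± 0.44 for Mmp3, 1.74 ± 0.25 for Mmp10, 2.94 ± 0.30 for Mmp13 and 0.27 ± 0.09 for Plaur, the urokinase receptor gene, which was chosen after its values were seen. Of the 8 tested targets with a window but no TGACTCA, 5 rose there as well (Spp1, Cd44, Il6, Vegfa and Hmga1), and of the 7 without a window 3 did (Mmp9, Hmox1 and F3). The 3 metalloproteinase windows are printed since these genes moved together in NRK-49F cells, beside that of Fosl1, which rose in the same samples and held none of the motifs. The windows of Mmp3, Mmp10 and Mmp13, all on chromosome 8, lie at chr8:12925031-12925280 (+ strand), chr8:12974457-12974706 (+ strand) and chr8:12782579-12782828 (+ strand), and that of Fosl1 at chr1:212183635-212183884 (+ strand). TGACTCA, or the same site read on the other strand, is in capitals. A match describes these letters only.
Mmp3: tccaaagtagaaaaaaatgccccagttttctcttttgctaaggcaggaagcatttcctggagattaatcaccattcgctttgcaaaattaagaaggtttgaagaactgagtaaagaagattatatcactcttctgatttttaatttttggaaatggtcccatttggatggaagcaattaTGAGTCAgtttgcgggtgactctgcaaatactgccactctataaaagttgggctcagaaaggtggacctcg
Mmp10: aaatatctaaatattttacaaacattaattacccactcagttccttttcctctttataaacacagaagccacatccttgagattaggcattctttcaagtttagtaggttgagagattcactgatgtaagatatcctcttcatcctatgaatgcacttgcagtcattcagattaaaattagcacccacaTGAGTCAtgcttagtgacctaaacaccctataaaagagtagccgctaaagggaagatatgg
Mmp13: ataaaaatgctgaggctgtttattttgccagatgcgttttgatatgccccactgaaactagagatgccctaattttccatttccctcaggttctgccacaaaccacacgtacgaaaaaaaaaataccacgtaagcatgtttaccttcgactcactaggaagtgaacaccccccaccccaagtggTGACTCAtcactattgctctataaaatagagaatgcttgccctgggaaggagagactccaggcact
Fosl1: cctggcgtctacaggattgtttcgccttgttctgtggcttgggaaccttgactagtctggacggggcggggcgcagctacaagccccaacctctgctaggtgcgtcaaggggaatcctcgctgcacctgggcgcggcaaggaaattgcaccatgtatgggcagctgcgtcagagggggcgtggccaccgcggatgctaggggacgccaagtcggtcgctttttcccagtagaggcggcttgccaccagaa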

How the data were processed

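The counts were deposited by the authors as a table of raw read counts per Ensembl gene, made from poly(A) RNA by HISAT2 2.1.0 and featureCounts on exons, with multi-mapping reads included and no normalization. The submitters' processing notes name the build rn6 and the paper's methods a later rat build, and the strand setting is not given in the sources used here. Of the sample columns 23 were used and 13 were not, since their names matched no sample label.

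Samples were grouped by line and pH as labelled. The edgeR package 4.0.16 was run in R 4.3.3. Its filterByExpr selected the genes (minimum count 10, minimum total 15), TMM scaled the libraries, and 1 model of 4 groups was fitted to all 23 samples with the quasi-likelihood test and Benjamini-Hochberg adjustment over all genes tested. A contrast of both changes tested the difference between the lines, and a model of 8 groups the difference between sample groups. The standard error was the absolute log2 fold change divided by the square root of F, with 95% intervals from 19 residual degrees of freedom. No replicate code occurs at both pH values, and the samples are unpaired. The code was tested on simulated data.

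The alternatives were RLE and upper-quartile scaling, DESeq2 1.42.0, no filter, at least 10 counts in every sample, each line fitted alone, the sample group as a block, sample groups 1 and 4 only or 3 and 6 only, each sample left out, an adjusted p under 0.01, and A021, A022 and A033 left out, the last chosen after seeing the data. Named genes were all members, in each list and line up to 3 regulated genes each way with the largest log2 fold change and a mean of at least 1 FPM, the 2 genes most like each member, and the markers, except for withheld items, which are not reported here. The members and lists were chosen with earlier results of these data known. Dusp1, Krt19 and Ocln have no entry under those symbols. Lengths of transcripts were not used, so levels are compared only within a gene, except to name the highest gene of each marker list. Promoters came from RefSeq (GRCr8). The plots were made by matplotlib 3.10.9 under Python 3.11.15.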

Additional observations from a re-analysis of the deposited data

Results flagged for a closer look

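Of 36 sets of samples (9 genes in 4 groups), 3 held a sample far from the others of its group, by its gap to the nearest sample relative to the group's range. Chance sets apart about 1 in 20 such groups. All 3 were in NRK-52E cells at pH 7.4: Fosl1 in replicate A035, the lowest at 1.30 FPM, Jund in the same replicate, the highest at 326 FPM, and Egr1 in replicate A023, the highest at 23.6 FPM.

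The change under acidosis differed between the lines by edgeR's test of the difference itself, as NRK-52E minus NRK-49F cells on the log2 scale, for Jun (−1.59), Fosl1 (−1.46), Ier3 (−1.26) and Jund (0.91). It differed between the sample groups of NRK-52E cells, as sample group 3 minus sample group 1, for Egr1 (−1.14) and Egr2 (−1.68). What lies behind these differences was not tested.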

How the results depend on the processing

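Of the values of single genes under alternatives other than leaving out 1 sample, 257 kept their direction and their side of the threshold, 10 passed it, 7 no longer did and 8 changed sign, and with 1 sample left out the numbers were 783, 4, 19 and 22. The signs that changed were those of the difference between the lines for Fosb, at 0.017 with RLE scaling, 0.018 with DESeq2 and 0.13 within sample groups 1 and 4, and for Egr2, at 0.16 within those groups. Within sample groups 3 and 6 that difference was −0.64 for Fos and −0.55 for Egr1. In NRK-52E cells within sample group 1 the log2 fold change was 0.074 for Fos and 0.19 for Egr1. None of these values passed the threshold with all samples, and the cause was not tested.

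Of the counts, 76 stayed within 1.5 times their value and 6 did not. An adjusted p under 0.01 left 2661 of 4270 regulated genes in NRK-49F cells. Sample groups 1 and 4 alone, with fewer samples, gave 3248 genes with a difference between the lines in place of 6120 and 2 regulated members in NRK-52E cells, and sample groups 3 and 6 alone gave 7 members there and 2702 genes in NRK-49F cells. DESeq2 gave 10 genes for the difference between the sample groups of NRK-49F cells, where edgeR gave 0 (624 at an unadjusted p under 0.05), and leaving out 1 sample gave 0 to 7.

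With 1 sample left out, the difference between the lines ranged from −0.017 to 0.31 for Fos and from −0.19 to 0.11 for Fosb, the change of Fosl1 in NRK-52E cells from −0.016 to 0.13, and the difference between the sample groups of NRK-52E cells from −0.23 to 0.24 for Fosb, −0.12 to 0.31 for Fosl1 and −0.22 to 0.19 for Jund. Jun, Jund, Ier3 and Fosl1 kept the sign of their difference between the lines and an adjusted p under 0.05 by the test used under every alternative fitted. No paired analysis was possible because no replicate code occurs at both pH values. Fos had 5 to 21 counts in a sample of NRK-49F cells.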
